A study of Mus musculus with 19 samples.

Results

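Activated and resting regulatory T cells (Tregs) of mice with an intact NF-kB system were compared in 5 of the 19 libraries of the series, 2 of resting cells (rTreg 1 and 2) and 3 of activated cells (aTreg 1, 2 and 3). The members were taken by their labels and not by any measured value, and 14818 genes had library values. All 5 libraries are labelled wild type (WT) and came from C57Bl/6 Foxp3-CRE-YFP mice. In these mice the Foxp3 locus drives Cre recombinase and a yellow fluorescent protein, so the WT cells carry Cre as well but have no floxed allele. YFP-positive cells of spleen and lymph nodes were sorted by 2 surface markers, with rTregs CD44lo and aTregs CD44hi, were not treated, and went straight to RNA extraction. The other sorted libraries served to estimate the spread and to test whether the difference depended on genotype. These were 4 libraries from mice of the same strain and Cre line with p65 F/F alleles (p65KO, built to lose Rela in Foxp3-expressing cells) and 4 from mice with c-Rel F/F alleles (cRelKO, built to lose Rel). How many animals stood behind a library, and their age and sex, are not given in the sources used here. The p-values therefore measure only the spread between these samples as deposited, which may be technical.

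Tregs are CD4 T cells that depend on the transcription factor Foxp3 and restrain other immune cells. Resting Tregs circulate through lymphoid organs with the help of the chemokine receptor Ccr7 and the sphingosine phosphate receptor S1pr1. After antigen contact, activated or effector Tregs lose these receptors, divide, enter tissues and make suppressive molecules. NF-kB is a family of dimeric transcription factors, among them p65 and c-Rel, that is held in the cytoplasm by inhibitor proteins and released by antigen and TNF receptors. It binds a short DNA sequence called the kappaB site.

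KappaB sites are shown here because the series concerns this family and because some of the genes described below carry one close to their start. RefSeq promoter sequences of build GRCm38.p6 were available for 8208 of the 10656 genes tested, and the 250 bases before each start were searched on both strands for the kappaB consensus. Each line gives the strand of the gene with the match in capitals. Cxcl10, Tnfrsf9 and Ccl1 were higher in aTregs, and Nfkbia was not called. Matches not printed lay in further genes called higher, among them Ccr6 and Ebi3, and in Ifitm3 and Ifngr2, which were called lower. Rel, Il2ra, Nfkb2 and Tnfaip3 had a match as well and were not called.
Cxcl10, chr5:92348973-92349002, minus strand: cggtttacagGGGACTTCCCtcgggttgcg
Tnfrsf9, chr4:150927947-150927976, plus strand: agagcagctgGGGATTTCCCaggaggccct
Ccl1, chr11:82179989-82180018, minus strand: tctgcacttgGGGAAGTTCCcaaggccact
Nfkbia, chr12:55492657-55492686, minus strand: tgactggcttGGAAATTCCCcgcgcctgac
A match in any promoter of the gene was present in 12.8% of 619 genes called higher in aTregs and in 8.65% of 393 called lower. The share was 10.7% over the 8208 tested genes whose promoters were searched and 8.23% over all 27025 genes searched. Genes with several starts had more chances to match. For the TCF/LEF motif CTTTGAA the shares were 3.39%, 3.56%, 3.75% and 5.19% in the same order. For the KLF motif CCACACCC they were 5.65%, 2.8%, 4.2% and 3.68%. A base could count toward more than 1 motif, and a match describes letters, not binding.

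Values are RPKM, reads scaled for gene length and library size, as the authors deposited them. Log2 differences are means of log2(RPKM + 0.5) in aTregs minus rTregs with values below 0 set to 0, a scale that understates changes of low genes. A gene is said to be called, or to have risen or fallen, where the limma test over all 13 sorted libraries gave an adjusted p under 0.05.

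The deposited values had been adjusted between libraries by replicate number, in a way the headers do not describe, and this shaped the 5 libraries. Identical values occurred 15883 times between libraries with the same number and 0 times between libraries with different numbers, and 2.63% of the WT values were below 0. Over 7836 genes the log2 ratio of the mean over all libraries numbered 3 to that over number 1 had an SD of 0.0712, although number 1 holds 3 rTreg and 2 aTreg libraries and number 3 holds 2 aTreg libraries only (WT aTreg 3 and cRelKO aTreg 3). For Ccr7, a gene of the resting state, the 3 number means were 268, 256 and 252 RPKM. The activated state and the offset of number 3 cannot be told apart in WT aTreg 3. The limma p-values measure the spread left after this adjustment, which the main fit did not take into account. Over the 1302 genes called, WT aTreg 1 stood at a median distance of 1.04 from the rTreg mean in the direction of the call, aTreg 2 at 0.93 and aTreg 3 at 0.58. In 959 of the 1302 genes aTreg 3 lay nearer to the rTreg mean than aTreg 1 lay to rTreg 1 and aTreg 2 to rTreg 2. The counts of genes called are therefore given also without both libraries numbered 3, and the main genes by the differences within number 1 (aTreg 1 minus rTreg 1) and number 2 (aTreg 2 minus rTreg 2). Depth could not be read from the sorted table. Between 9909 and 10283 genes reached 1 RPKM per WT library.

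**Figure D1:**
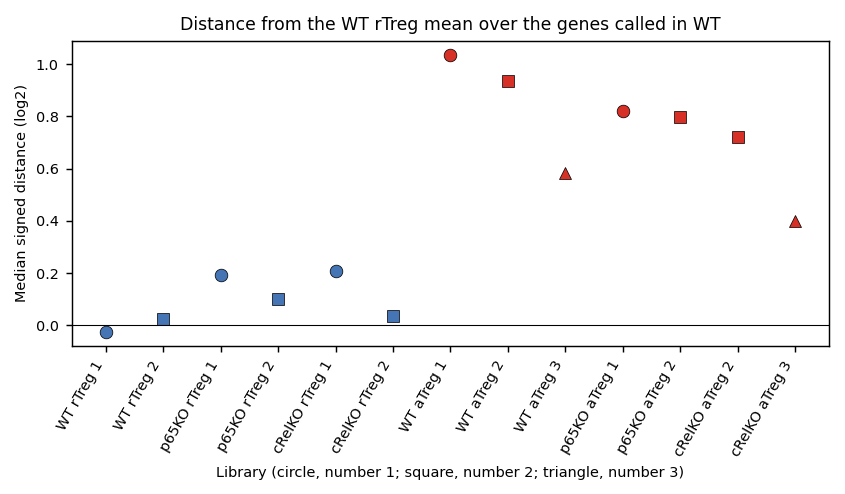
Median signed log2 distance of each of the 13 sorted libraries (x axis) from the mean of the WT rTreg libraries over the 1302 genes called in WT, counted as positive in the direction of the call. The genes were chosen in WT, so the WT aTreg points describe the choice. Both triangles, the libraries numbered 3, lie below the other aTreg libraries of their genotype, WT aTreg 3 at 0.58 and cRelKO aTreg 3 at 0.40.

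The sort marker CD44 checks the labels and is no finding. Cd44, the adhesion receptor that marks antigen-experienced T cells, was at 19.4 and 10.9 RPKM in rTregs and at 49.4, 45.2 and 26.4 in aTregs. The groups did not overlap, and the log2 difference of 1.39 (SE 0.42) missed the threshold with an adjusted p of 0.0571 in limma. The Cd44 difference was called in other fits, with an adjusted p of 0.0242 without both libraries numbered 3, 0.0033 with the replicate number as a block and 3.05e-13 in the authors' deposited table. Foxp3 was at 71.9 and 97.5 RPKM in rTregs and at 72.6, 102 and 90.7 in aTregs, with overlapping groups. Markers of other lymphocytes gave a mixed picture. The CD8 T cell gene Cd8a was under 1 RPKM in all 5 libraries, whereas its partner Cd8b1 was at 21.9 and 16.3 RPKM in rTregs and at 9.70, 9.13 and 15.0 in aTregs. Cd8b1 was not called (log2 difference -0.75, adjusted p = 0.0842 in limma), but its adjusted p was 0.0195 without both libraries numbered 3. Of the 13 B cell markers with values, 7 were under 1 RPKM in all 5 libraries, among them Ms4a1 and Pax5. The B cell receptor chain gene Cd79b was at 16.6 and 11.7 RPKM in rTregs and at 18.4, 22.1 and 14.0 in aTregs, with overlapping groups. Cd22, a lectin of B cells, was at 0.658 and 0.477 RPKM in rTregs and at 5.78, 5.26 and 1.80 in aTregs and was called higher (2.04, SE 0.45). The summed RPKM of the B cell markers was 32.5 and 18.8 in rTregs and 42.6, 33.9 and 17.5 in aTregs. Erythroid and platelet markers summed to 20.8 and 0.213 RPKM in rTregs and to 18.7, 0.398 and 30.7 in aTregs, and none was called. The part of both marker lists in the results was not tested.

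Activated Tregs differed from resting Tregs in 1302 of 10656 genes tested (12.2%), with 803 higher (7.54%) and 499 lower (4.68%). At least a 2-fold change was reached by 452 of the genes called higher and by 76 of those called lower. The log2 difference had the same sign within number 1 and within number 2 for all 1302 genes, and the 2 groups overlapped in none of them. The calls were made on these same libraries, so this largely describes the choice of genes. Over all 10656 genes tested, 2989 were higher and 4086 lower in aTregs within both numbers. Across the genes tested, 19% had every aTreg library above every rTreg library and 21.9% every aTreg library below. Without both libraries numbered 3, 1171 genes were called higher (11%) and 1032 lower (9.7%), and 1246 of the 1302 genes were among them. By the p-values of the authors' deposited table, adjusted here, 933 of the genes tested were higher (8.76%) and 434 lower (4.07%). Of the 1302 genes, 804 were also called in the authors' deposited table with the same sign and 0 with the opposite sign. The number of calls rested on single libraries. It was 249 without rTreg 1, 2963 without rTreg 2, 83 without aTreg 1, 91 without aTreg 2 and 2392 without aTreg 3. A core of 77 genes, all higher in aTregs, was called in each of these 5 fits, and no gene called lower was. In none of the 22 gene lists described below was a member called lower without aTreg 1, aTreg 2 or rTreg 1. None of the 1302 genes changed sign when 1 library was left out, which is fixed in advance where the groups do not overlap. In such a fit a group with 1 library left is assumed to vary like the other groups.

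**Figure D2:**
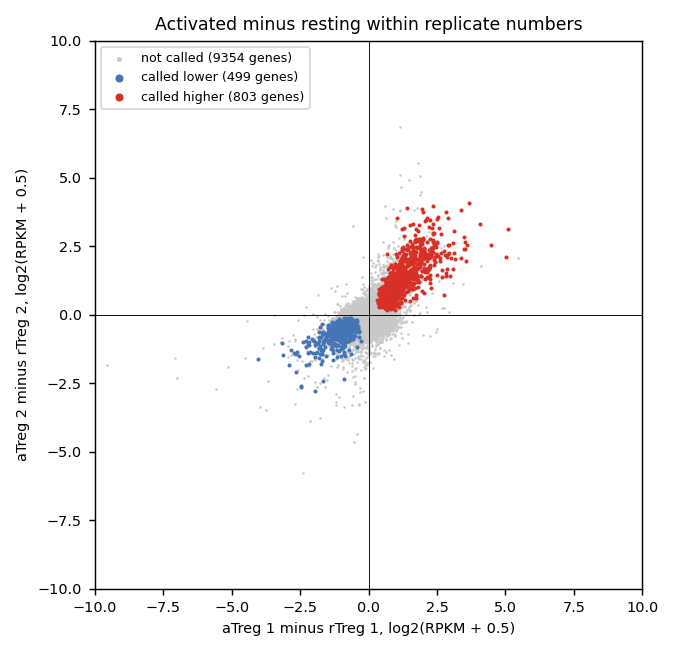
Difference between aTreg and rTreg within replicate number 1 (x axis) against that within number 2 (y axis), both in log2(RPKM + 0.5), for 10656 genes. The 803 genes called higher lie at the upper right and the 499 called lower in the lower left, so no called gene differs in sign between the numbers, and the rises reach further than the falls.

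Among called genes that averaged 5 RPKM or more in aTregs, Il1r2, Klrg1 and Penk had the 3 largest rises. Klrg1 (chr6:122270596-122282882), an inhibitory lectin-like receptor of late effector lymphocytes, was at 6.07 and 4.38 RPKM in rTregs and at 82.2, 82.3 and 62.0 in aTregs. Every aTreg library stood far above both rTreg libraries. The log2 difference was 3.73 (SE 0.35, adjusted p = 0.00526), with 3.65 within number 1 and 4.08 within number 2. In the rTregs of all 3 genotypes Klrg1 lay between 6.00 and 6.13 RPKM for number 1 and between 4.38 and 4.81 for number 2, so its resting level cannot be read apart from the number. Il1r2 (chr1:40074079-40125231), a decoy receptor that binds interleukin 1 without signalling, was at 2.09 and 7.8 RPKM in rTregs and at 87.8, 72.6 and 43.9 in aTregs. The groups were well apart, with aTreg 3 the lowest of the activated libraries, and the log2 difference was 3.83 (SE 0.59, adjusted p = 0.00881 in limma). Without rTreg 1 its adjusted p was 0.0515. Penk (chr4:4133531-4138819), which encodes the precursor of the enkephalin opioid peptides, was at 7.57 and 13.7 RPKM in rTregs and at 134, 141 and 102 in aTregs. It rose by 3.54 (SE 0.41, adjusted p = 0.00526 in limma), and the 3 aTreg libraries lay close together. Among the other 12 largest rises were Slc7a10, an amino acid transporter (3.35), Myo1f, an unconventional myosin (3.26), Tmbim1 (3.20), Il9r, the receptor of interleukin 9 (3.09), Ttc39c (2.94), the TNF receptor family member Tnfrsf8 (CD30, 2.93) and the carboxylesterase Ces2c (2.86), all log2 differences. For Slc7a10 the rTreg values were -0.876 and 1.92 RPKM and for Il9r 2.02 and 0.202, so these differences depend on how low values are treated. The log2 fold changes of the authors' deposited table were larger for all 12 genes, from 3.47 for Ccr8 to 6.31 for Ttc39c, with 6.17 for Klrg1 and 5.67 for Tnfrsf8. Reads of Ces2c may be shared with close relatives of its gene family.

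Genes of the effector Treg list stood higher as a group. Of 35 tested, 21 were called higher and 0 lower, beside 7.54% and 4.68% of all genes tested. The median log2 difference was 1.98 against -0.06 over all genes tested. All 35 were higher within both numbers, beside 2989 of all 10656 genes tested. Without both libraries numbered 3, 24 were called higher. By the p-values of the authors' deposited table the count was 33, and the median of its log2 fold changes was 3.15. The list was chosen with these results known and is not independent evidence of its direction. With 1 library left out the count ran from 9 without aTreg 1 to 26 without aTreg 3. Klrg1, Penk, Ccr8, Pdcd1, Havcr2, Tnfrsf1b, Il1rl1 and Prdm1 were the 8 members called in all 5 such fits. Prdm1, which encodes the transcription factor Blimp-1 of effector lymphocytes, was at 3.42 and 3.24 RPKM in rTregs and at 18.4, 18.4 and 9.21 in aTregs. Its groups did not overlap, and the log2 difference was 1.98 (SE 0.29, adjusted p = 0.0079 in limma).

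**Figure D3:**
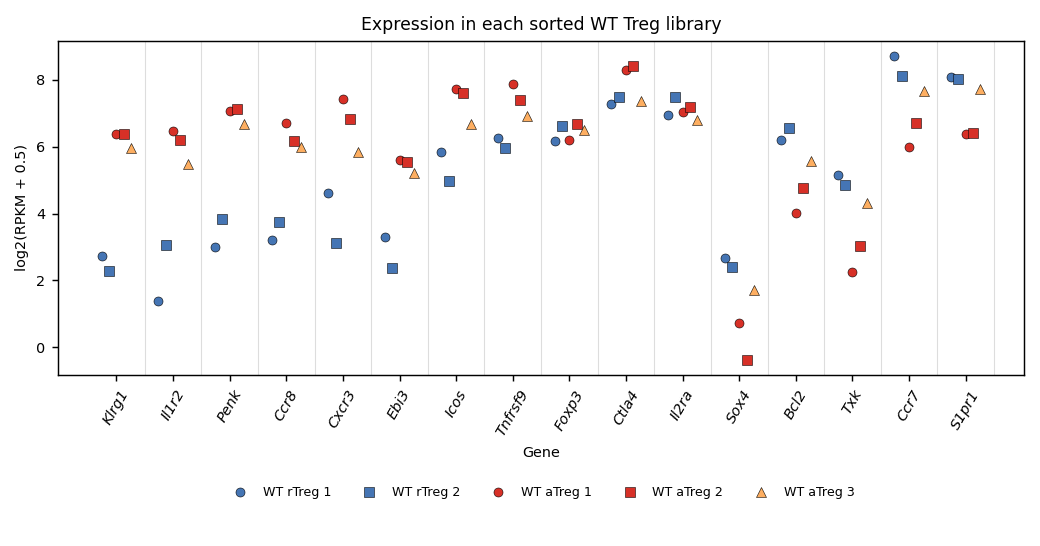
Expression of 16 genes on the log2(RPKM + 0.5) scale (y axis) in each WT library, with rTregs in blue, aTregs 1 and 2 in red and aTreg 3 in orange. From Klrg1 to Tnfrsf9 the 3 aTreg points lie above both rTreg points. Foxp3 and Il2ra overlap between the groups, and from Sox4 to S1pr1 the aTreg points lie lower, with aTreg 3 nearest to the rTregs.

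Inhibitory and costimulatory receptors of the immunoglobulin family had 6 of 22 genes higher and 0 lower (median log2 difference 0.50). Over all genes tested the shares were 7.54% and 4.68%. Without both libraries numbered 3 the counts were 10 and 0. The count of genes called higher was 2 without aTreg 1 or aTreg 2. Tigit (chr16:43648867-43664146), an inhibitory receptor for nectin-like ligands, was at 60.02 and 19.98 RPKM in rTregs and at 242, 276 and 164 in aTregs. Its log2 difference was 2.66 (SE 0.59, adjusted p = 0.0255 in limma), while the log2 fold change of Tigit in the authors' deposited table was 6.46. The rTreg values of Tigit were near 60 in all 3 genotypes for number 1 and near 20 for number 2, so its resting level cannot be read across numbers. Pdcd1, which encodes the inhibitory receptor PD-1, was at 21.5 and 24.2 RPKM in rTregs and at 188, 152 and 107 in aTregs. It rose by 2.64 (SE 0.35, adjusted p = 0.00559 in limma), with no overlap. Icos, a costimulatory receptor needed by effector Tregs, was at 57.0 and 30.9 RPKM in rTregs and at 209.8, 193 and 102 in aTregs. It rose by 1.92 (SE 0.39, adjusted p = 0.0219 in limma). Cd200r1, an inhibitory receptor for CD200, rose by 1.23 (SE 0.25), and Havcr2 (Tim-3) and Cd80 were also called higher. Ctla4, which removes CD80 and CD86 from antigen-presenting cells, was at 156 and 178 RPKM in rTregs and at 315, 338 and 165 in aTregs. Here aTreg 3 lay inside the resting range, the log2 difference of 0.64 was not called (adjusted p = 0.183 in limma), and without both libraries numbered 3 the adjusted p was 0.038.

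Of the TNF receptor superfamily, 3 of 16 genes were higher and 2 lower, beside 7.54% and 4.68% of all genes tested. The counts were 4 and 3 without both libraries numbered 3. Tnfrsf1b (TNFR2), the TNF receptor through which TNF expands Tregs, was at 27.4 and 31.7 RPKM in rTregs and at 146, 127 and 80.3 in aTregs. The rise of 1.94 (SE 0.24, adjusted p = 0.00526 in limma) held in all 5 fits without 1 library. Tnfrsf9 (4-1BB) was at 76.3 and 61.8 RPKM in rTregs and at 233, 167 and 119.7 in aTregs, a log2 difference of 1.27 (SE 0.28, adjusted p = 0.0251 in limma). Tnfrsf8 (CD30) was at 1.81 and 0.913 RPKM in rTregs and at 12.7, 15.6 and 11.8 in aTregs, with no overlap and an adjusted p of 0.0309. Relt fell by 0.96 (SE 0.21, adjusted p = 0.026), from 27.5 and 27.9 RPKM to 10.2, 14.1 and 19.0. The other member called lower was the death receptor gene Fas. Neither fall was called in the authors' deposited table, with adjusted p values of 0.096 for Relt and 0.247 for Fas, and without aTreg 1, aTreg 2 or rTreg 1 no member was called lower and 1 was called higher.

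Suppressive effector molecules had 9 of 21 genes higher and 1 lower (median log2 difference 1.43), beside 7.54% and 4.68% of all genes tested. Without both libraries numbered 3 the counts were 14 and 1. With 1 library left out, the number called higher ran from 3 (without aTreg 1 or rTreg 1) to 16 (without aTreg 3). Ebi3, a shared subunit of the cytokines IL-27 and IL-35, was at 9.31 and 4.64 RPKM in rTregs and at 47.9, 45.7 and 36.7 in aTregs. The 3 aTreg values were close together and the log2 difference was 2.62 (SE 0.44, adjusted p = 0.0124 in limma). Cst7, which encodes the protease inhibitor cystatin F, was at 39.0 and 29.9 RPKM in rTregs and at 208, 177 and 111 in aTregs, a log2 difference of 2.21 (SE 0.26). Itgb8, the integrin subunit with which Tregs activate TGF-beta, rose by 1.73 (SE 0.35). The other members called higher were Penk, Il1r2, Areg, Il1rn, Itgav and Nkg7. Against this direction, the pore-forming protein gene Prf1 was at 10.5 and 8.4 RPKM in rTregs and at 1.73, 1.97 and 6.17 in aTregs. It fell by 1.57 (SE 0.42, adjusted p = 0.0395 in limma). Nkg7 and Prf1 are also NK cell markers. The summed RPKM of the 7 NK and cytotoxic markers in the table was 46.3 and 22.9 in rTregs and 120, 61.7 and 60.5 in aTregs. Most of it was Nkg7 (111, 58.7 and 47.1 in aTregs), while Ncr1, Klre1 and Gzma were under 1 RPKM in all 5 libraries. Klrd1 was at 7.58 and 0.858 RPKM in rTregs and at 3.2, -1.85 and 4.04 in aTregs. For Klrb1c the values were 2.79 and -1.52 in rTregs and 2.88, -0.021 and 1.72 in aTregs. A part of other cells in these values was not tested.

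Receptors that guide cells to tissues were among the genes that rose. Of 22 chemokine and homing receptor genes, 11 were higher and 1 was lower, beside 7.54% and 4.68% of all genes tested. The median log2 difference of the list was 1.61, and the counts were 11 and 3 without both libraries numbered 3. With 1 library left out the count of genes called higher fell to as few as 1, Ccr8, without aTreg 1 or aTreg 2. Ccr8 (chr9:120092114-120094906), a receptor of tissue and tumour Tregs, was at 8.69 and 12.98 RPKM in rTregs and at 104, 71.3 and 62.7 in aTregs. Ccr8 rose by 2.81 (SE 0.42, adjusted p = 0.0079 in limma). Cxcr3, the receptor of T helper 1 type inflammation, was at 23.8 and 8.1 RPKM in rTregs and at 172, 114 and 56.5 in aTregs. The difference of 2.85 (SE 0.63) had an adjusted p of 0.0251, and aTreg 3 lay below the other aTregs. Gpr15, a receptor for homing to the colon, rose by 2.56 (SE 0.57), and Ccr6, the receptor for Ccl20, by 1.91 (SE 0.36). The others called higher were Ccr3, Cxcr5, Ccrl2, S1pr2, Ltb4r1, Ptger2 and Ptger4. Of the integrin and adhesion genes, 9 of 23 were higher and 0 lower in limma over all 13 libraries. Falls appeared in other fits, with 12 higher and 6 lower without both libraries numbered 3, 5 lower without aTreg 3, and 3 lower by the authors' deposited table. Without aTreg 1 or aTreg 2 a single integrin or adhesion gene was called higher. Itgb1, the shared beta1 subunit, was at 74.4 and 37.1 RPKM in rTregs and at 295, 252 and 209 in aTregs (log2 difference 2.23, SE 0.45). Itgae (CD103), which binds E-cadherin on epithelium, was at 13.6 and 18.7 RPKM in rTregs and at 105, 88.7 and 37.0 in aTregs (2.10, SE 0.36). Alcam rose by 1.78 from low values, 1.88 and 0.714 RPKM, to 6.22, 7.31 and 3.27. Epcam, an epithelial adhesion gene that the list of stroma and endothelium markers includes, was called higher as well, at 4.21 and 3.44 RPKM in rTregs and 17.5, 19.5 and 8.23 in aTregs, while the other 6 markers of that list were under 1 RPKM in all 5 libraries.

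**Figure D4:**
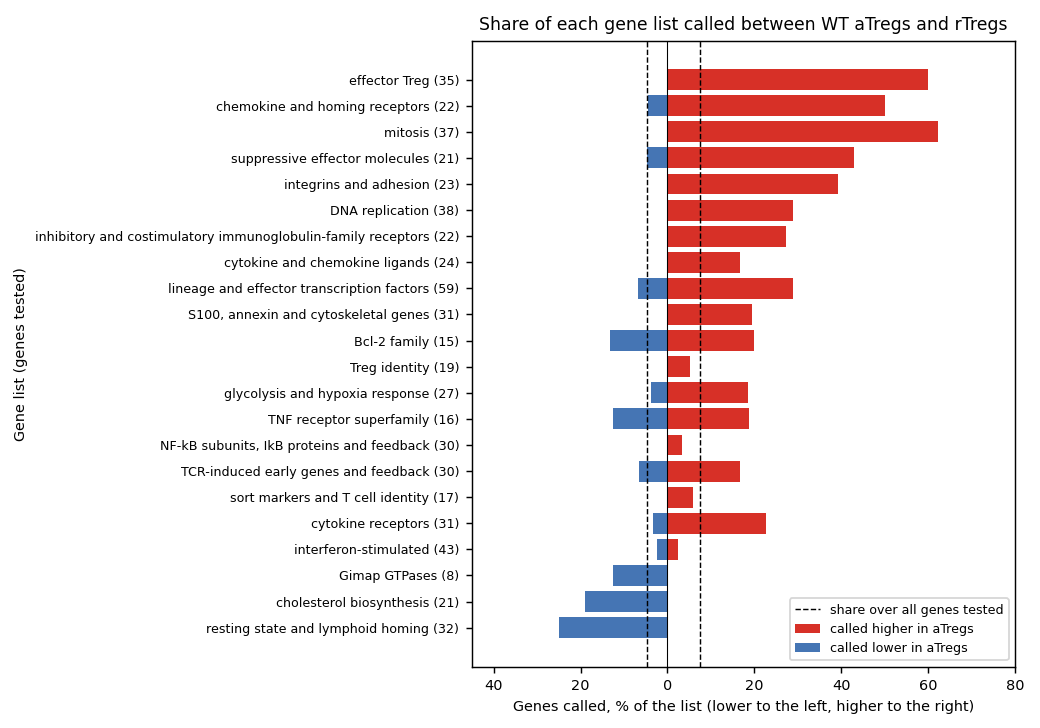
Share of the tested genes of each of 22 lists called higher (red, to the right) or lower (blue, to the left) in WT aTregs, in percent, ordered by the median log2 difference of the list. Dashed lines mark the shares over all genes tested, 7.54% and 4.68%. Mitosis, effector Treg and chemokine receptor genes reach furthest to the right and resting state genes furthest to the left.

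Genes of the resting state and of lymphoid homing were lower in aTregs in 8 of 32 cases and higher in 0. Over all genes tested the shares were 4.68% and 7.54%. The list had a median log2 difference of -0.93. Without both libraries numbered 3, 20 were called lower, and the count was 22 by the authors' deposited table. The 8 calls are lost without aTreg 1, aTreg 2 or rTreg 1, each of which left 0, and the count was 20 without aTreg 3. Within both numbers 29 of the 32 genes were lower in aTregs and 1 was higher, beside 4086 and 2989 of all 10656 genes tested. Ccr7 (chr11:99144196-99155077), which draws T cells into lymph nodes, was at 419.6 and 274 RPKM in rTregs and at 62.9, 104 and 202 in aTregs. The groups did not overlap, and it fell by 1.62 (SE 0.44, adjusted p = 0.0414), or by 2.73 within number 1 and 1.39 within number 2. Klf2, a transcription factor that drives S1pr1, was at 304 and 295 RPKM in rTregs and at 91.7, 83.8 and 191 in aTregs. Klf2 had a log2 difference of -1.39 (SE 0.39, adjusted p = 0.0445 in limma). S1pr1 had its highest aTreg value in aTreg 3 too, with 272 and 258 RPKM in rTregs and 82.7, 83.7 and 209.7 in aTregs, and was not called (-1.22, SE 0.41, adjusted p = 0.0711). Without both libraries numbered 3 its adjusted p was 0.00083. Bcl2, the survival protein of resting lymphocytes, was at 72.6 and 93.4 RPKM in rTregs and at 15.6, 26.5 and 47.1 in aTregs, and fell by 1.59 (SE 0.42, adjusted p = 0.0376). Pik3ip1, an inhibitor of PI3 kinase, fell by 1.41 (SE 0.33). Klf3, Foxp1, Txnip and Sesn1 were the other members called lower.

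Tcf7 and Bach2, transcription factors of resting and stem-like T cells, were not called. Tcf7 was at 441 and 408 RPKM in rTregs and at 333, 187 and 417 in aTregs, so that aTreg 3 lay between the resting libraries. Its log2 difference was -0.52 (adjusted p = 0.32 in limma, and 0.159 without both libraries numbered 3). Bach2 was at 10.5 and 18.5 RPKM in rTregs and at 6.71, 4.07 and 10.1 in aTregs. It lay lower in all 3 aTreg libraries, with a log2 difference of -1.03 and an adjusted p of 0.0936, and with 0.0158 without both libraries numbered 3.

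The 12 largest falls held further genes of signalling and transport. Gabrr2, a subunit of GABA receptors, was at 17.8 and 12.2 RPKM in rTregs and at 0.628, 3.6 and 6.55 in aTregs, a log2 difference of -2.25 (SE 0.63, adjusted p = 0.0441 in limma). Sgk3, a kinase related to AKT, was at 8.49 and 8.02 RPKM in rTregs and at 1.13, 0.902 and 5.42 in aTregs (-1.88). Sox4, a transcription factor of the SOX family, was at 5.93 and 4.81 RPKM in rTregs and at 1.17, 0.273 and 2.78 in aTregs (-1.85). Txk, a kinase of the TEC family that acts downstream of the T cell receptor, was at 35.1 and 28.4 RPKM in rTregs and at 4.3, 7.68 and 19.3 in aTregs (-1.81, adjusted p = 0.0316 in limma). In each of these 4 genes aTreg 3 was the aTreg library nearest to the resting level. Ifitm3, an interferon-induced membrane protein, differed in this, with 8.55 and 5.06 RPKM in rTregs and 1.45, 2.62 and 1.18 in aTregs. It fell by 1.71 on the log2 scale and was not called in the authors' deposited table (adjusted p = 0.097). Tubb2a, Klf7, Slc17a9, Rab3ip and Prf1 completed the list with log2 differences from -1.82 to -1.57. None of the 12 genes kept its call in all 5 fits without 1 library.

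Of 59 lineage and effector transcription factors, 17 were higher and 4 lower, the latter being Klf2, Klf3, Klf7 and Foxp1. Over all genes tested the shares were 7.54% and 4.68%. Klf2, Klf3 and Foxp1 are also members of the resting state list. The counts were 19 and 9 without both libraries numbered 3, 23 and 10 by the authors' deposited table, and 5 and 0 without aTreg 2. Ahr, the aryl hydrocarbon receptor, was at 2.06 and 3.14 RPKM in rTregs and at 17.0, 17.8 and 9.79 in aTregs. It rose by 2.29 (SE 0.27, adjusted p = 0.00526 in limma) and kept its call in all 5 fits without 1 library. Rora, a nuclear receptor of the ROR family, was at 3.78 and 5.71 RPKM in rTregs and at 27.1, 18.7 and 12.5 in aTregs (1.88, SE 0.46). Tox2 was at 5.51 and 2.16 RPKM in rTregs and at 30.3, 26.0 and 24.6 in aTregs (2.78, SE 0.67), with a log2 fold change of 6.16 for Tox2 in the authors' deposited table. Hif1a, which drives the response to low oxygen, was at 42.6 and 44.6 RPKM in rTregs and at 145, 109 and 99.0 in aTregs (1.40, SE 0.19, adjusted p = 0.00601 in limma). The other factors called higher included Gata3, Batf, Bcl6, Nfil3, Bhlhe40, Tox, Vdr, Pparg, Nfatc1 and Zbtb32.

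The Treg identity genes had a median log2 difference of 0.26. Of 19 tested, 1 was called higher and 0 were lower, beside 7.54% and 4.68% of all genes tested. That gene was Nrp1, a semaphorin receptor of thymus-derived Tregs, at 25.9 and 24.2 RPKM in rTregs and 72.7, 70.9 and 60.7 in aTregs (1.42, SE 0.29, adjusted p = 0.0219 in limma). Foxp3 had a log2 difference of 0.06 (SE 0.34), and Il2ra, the alpha chain of the IL-2 receptor, one of -0.21 (SE 0.38). With these errors differences of moderate size cannot be seen. Ikzf2 (Helios) was at 41.2 and 47.0 RPKM in rTregs and at 68.3, 121 and 66.2 in aTregs. Its groups did not overlap, yet the log2 difference of 0.89 (SE 0.71) had an adjusted p of 0.4. The abundant members Capg and Il2rb had log2 differences of 0.25 and 0.29 and were not called. Without both libraries numbered 3, 4 identity genes were called higher and 2 lower. Of the T cell identity and sort marker genes, Zap70, the kinase bound to the T cell receptor, was called higher (0.51, SE 0.13), and the other 16 of 17 were not called. Cd3g and Cd2 had log2 differences of 0.04 and -0.33.

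The list of NF-kB subunits, their inhibitors and feedback regulators held 30 genes tested. Of these, 1 was called higher and 0 lower, beside 7.54% and 4.68% of all genes tested, and the median log2 difference was 0.09. Rela (p65) was at 71.5 and 69.0 RPKM in rTregs and at 68.3, 62.3 and 64.2 in aTregs, a log2 difference of -0.11 (SE 0.11). Rel (c-Rel) was at 10.9 and 20.5 RPKM in rTregs and at 18.6, 21.3 and 22.0 in aTregs (0.45, SE 0.42). The groups overlapped for Rel and did not for Rela, and neither was called. Nfkb1, the gene of p105 and p50, differed by 0.21 (SE 0.12). Nfkb2, the gene of p100 and p52, was at 23.4 and 31.5 RPKM in rTregs and at 49.7, 49.7 and 33.3 in aTregs. It had a log2 difference of 0.67 and an adjusted p of 0.0888 in limma, which became 0.0375 without both libraries numbered 3. Relb was at 26.5 and 21.9 RPKM in rTregs and at 37.8, 34.5 and 20.8 in aTregs, with adjusted p values of 0.363 and 0.0416 in the same order. For both genes aTreg 3 was the lowest aTreg library. Of the feedback inhibitors, Nfkbia (IkB alpha) had a log2 difference of -0.26 (SE 0.18) and Tnfaip3 (A20) one of 0.45 (SE 0.31). The member called was Otud7b, a deubiquitinase that restrains NF-kB, at 6.7 and 6.36 RPKM in rTregs and 10.7, 11.4 and 8.38 in aTregs (0.59, SE 0.15). Without both libraries numbered 3, 8 members were called higher, beside 11% of all genes tested. The count was 3 in the authors' deposited table, beside 8.76%.

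Of the early genes of T cell receptor signalling, 5 of 30 were higher and 2 lower, beside 7.54% and 4.68% of all genes tested. The counts were 7 and 5 without both libraries numbered 3. Egr2, a transcription factor induced by the T cell receptor, was at 13.4 and 12.0 RPKM in rTregs and at 36.5, 34.5 and 25.4 in aTregs (1.29, SE 0.20, adjusted p = 0.00841 in limma). Rgs16, a regulator of G protein signalling, was at 10.4 and 8.35 RPKM in rTregs and at 50.4, 40.9 and 24.8 in aTregs (1.94, SE 0.30). Egr1, Nr4a1 and Nr4a2 were also higher. In the opposite direction, the phosphatase gene Dusp2 was at 382 and 274 RPKM in rTregs and at 136, 168 and 201 in aTregs (-0.96, SE 0.18). Cd69, a receptor that holds back egress, fell by 0.85 (SE 0.21), from 83.1 and 55.9 RPKM to 30.1, 38.1 and 46.0. Both falls missed the threshold in the authors' deposited table, with adjusted p values of 0.065 for Dusp2 and 0.246 for Cd69, and no member was called lower without aTreg 1, aTreg 2 or rTreg 1. The summed RPKM of 14 dissociation and stress genes, among them Egr1, was 2160 and 1610 in rTregs and 1730, 1670 and 1520 in aTregs.

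Cytokine receptors had 7 of 31 genes higher and 1 lower (median log2 difference -0.02), beside 7.54% and 4.68% of all genes tested. The counts were 10 and 3 without both libraries numbered 3. As few as 2 cytokine receptors were called higher with 1 library left out, without rTreg 1. Il1rl1 (ST2), the receptor of the alarmin IL-33, was at 2.48 and 1.55 RPKM in rTregs and at 11.2, 13.9 and 9.48 in aTregs. The gene rose by 2.27 (SE 0.36, adjusted p = 0.00995 in limma) and it was called in all 5 fits without 1 library. Il18rap, a chain of the IL-18 receptor, rose by 2.67 (SE 0.61) from 1.5 and 0.31 RPKM to 9.09, 8.29 and 5.75. Ifngr2, a chain of the interferon gamma receptor, was at 43.3 and 42.1 RPKM in rTregs and at 14.3, 14.5 and 25.7 in aTregs, and fell by 1.26 (SE 0.29). Of the cytokine and chemokine ligands, 4 of 24 were higher and 0 lower, and 8 and 0 without both libraries numbered 3. Cxcl10, a ligand of Cxcr3, was at 2.05 and 1.46 RPKM in rTregs and at 21.6, 15.9 and 5.93 in aTregs (2.57, SE 0.42, adjusted p = 0.0109 in limma). Ccl1, a ligand of Ccr8, was at 1.05 and 0.323 RPKM in rTregs and at 6.25, 4.67 and 4.83 in aTregs (2.33, SE 0.66). Tnfsf11 (RANKL) rose by 1.53 (SE 0.35) and Tnfsf10 (TRAIL) by 1.04 (SE 0.22). Of these 4 ligand genes none was called in all 5 fits without 1 library, and Ccl1 was called in none of them.

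Cell division genes were higher in aTregs. Of 37 mitosis genes, 36 were higher within both numbers, beside 2989 of all 10656 genes tested. By the test 23 were called higher and 0 lower (median log2 difference 1.52), beside 7.54% and 4.68% of all genes tested. The count was 0 without aTreg 1 and without aTreg 2, 10 without rTreg 2, 24 without rTreg 1 and 28 without aTreg 3, and 27 without both libraries numbered 3. The median difference within number 1 was 1.20 and that within number 2 was 2.11. Aurkb, a mitotic kinase, was at 1.53 and 0.383 RPKM in rTregs and at 6.82, 5.55 and 5.13 in aTregs (2.23, SE 0.42). Ccna2, a cyclin of S phase and mitosis, was at 2.64 and 0.09 RPKM in rTregs and at 11.7, 7.995 and 6.26 in aTregs (2.71, SE 0.61). Kif11, a spindle motor, was at 2.61 and -0.195 RPKM in rTregs and at 7.64, 6.86 and 5.21 in aTregs (2.49, SE 0.68). In all 3 genes rTreg 2 was near or below 0. The proliferation marker Mki67 showed the same pattern with 5.85 and -0.278 RPKM in rTregs and 13.7, 16.4 and 9.44 in aTregs. It was not called (2.91, SE 0.96, adjusted p = 0.0687), and its difference was 1.16 within number 1 against 5.08 within number 2. Of 38 DNA replication genes, 11 were called higher and 0 lower (median 0.55), and 16 and 0 without both libraries numbered 3. The 11 calls became 0 without aTreg 1 and without aTreg 2, 2 without rTreg 2, 4 without rTreg 1 and 15 without aTreg 3. Rrm2, a subunit of ribonucleotide reductase, was at 7.32 and 2.2 RPKM in rTregs and at 25.6, 23.2 and 13.2 in aTregs (2.15, SE 0.52). Its partner Rrm1 rose by 0.89 (SE 0.18), Uhrf1, which keeps DNA methylation through replication, by 1.62 (SE 0.39), and Tyms, which makes thymidylate, by 1.30 (SE 0.29). In such bulk libraries a larger share of dividing cells and more transcript per cell cannot be told apart, as for every cell type or state described here.

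Cytoskeletal and S100 genes had 6 of 31 members higher and 0 lower, beside 7.54% and 4.68% of all genes tested. The counts were 8 and 0 without both libraries numbered 3. A single member was called higher without aTreg 1 or aTreg 2. Myo1f was at 4.02 and 2.3 RPKM in rTregs and at 46.6, 38.6 and 21.0 in aTregs (3.26, SE 0.46, adjusted p = 0.00631 in limma). Its relative Myo1e rose by 1.71 (SE 0.30). S100a11, a calcium-binding protein, was at 103 and 45.4 RPKM in rTregs and at 311, 271 and 206 in aTregs (1.91, SE 0.37). Lgals3, which encodes galectin 3, rose by 2.12 (SE 0.47), from 1.83 and 0.838 RPKM to 11.5, 8.24 and 3.75.

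Of 27 genes of glycolysis and the hypoxia response, 5 were higher and 1 was lower, beside 7.54% and 4.68% of all genes tested. These counts were 4 and 3 without both libraries numbered 3, and 1 and 0 without aTreg 1 or aTreg 2. Besides Hif1a, the glycolytic enzyme gene Tpi1 rose by 0.68 (SE 0.14) and the lactate transporter gene Slc16a1 by 0.37 (SE 0.10), while the enolase gene Eno3 fell by 0.97 (SE 0.26). Cholesterol synthesis genes were lower in 4 of 21 cases, beside 4.68% of all genes tested, and higher in 0, with a median log2 difference of -0.42. There were 5 called lower without both libraries numbered 3. Fdps, which makes farnesyl pyrophosphate, was at 24.3 and 15.6 RPKM in rTregs and at 7.34, 9.77 and 13.8 in aTregs (-0.93, SE 0.24). Sqle fell by 0.86 (SE 0.21), Mvd by 0.69 (SE 0.14) and Idi1 by 0.67 (SE 0.17). In the fits without 1 library the count for this list ran from 0 (without rTreg 1, aTreg 1 or aTreg 2) to 8 (without rTreg 2).

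Of 15 Bcl-2 family genes, 3 were higher and 2 lower, beside 7.54% and 4.68% of all genes tested. The counts were 4 and 3 without both libraries numbered 3. No member was called without aTreg 1, aTreg 2 or rTreg 1. Beside the fall of Bcl2, its relative Bcl2l1 (Bcl-xL), also a survival protein, was at 10.3 and 9.79 RPKM in rTregs and at 18.2, 19.9 and 18.7 in aTregs (0.88, SE 0.25). The death-promoting member Pmaip1 (Noxa) rose by 1.26 (SE 0.36), from 4.03 and 3.44 RPKM to 13.5, 12.4 and 5.25. Bcl2a1d rose by 2.14 (SE 0.60), but its reads can be shared with nearly identical copies of the gene. The other member called lower was Bcl2l11 (Bim). Beside 7.54% and 4.68% of all genes tested, 1 of 43 interferon-stimulated genes was higher and 1 lower. They were Oas1a, a sensor of double-stranded RNA that belongs to a family of close copies (0.77, SE 0.18), and Ifi35 (-0.75, SE 0.21). The list's median was -0.20, and 12 members were called lower without both libraries numbered 3, beside 9.7% of all genes tested. Of the 8 Gimap GTPases, which support lymphocyte survival, Gimap9 was lower (-0.64, SE 0.17), and the 2 most abundant not called, Gimap3 and Gimap4, had log2 differences of -0.38 and -0.48.

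The difference between aTregs and rTregs was then compared between WT and the floxed genotypes. These share no library with WT, but identical values occurred across genotypes within a replicate number. Slc7a10, for example, was at 1.92 RPKM in rTreg 2 of WT, p65KO and cRelKO. The deposited values of the genotypes are therefore not independent, which the test did not take into account. Rela RNA remained in the p65KO libraries, at 69.4 and 59.9 RPKM in rTregs and at 46.8 and 56.1 in aTregs. Rel was at 5.37 and 1.39 RPKM in cRelKO rTregs and at 1.56 and 3.02 in cRelKO aTregs, below every WT library. The extent to which p65 was lost was not tested. No gene passed the threshold for a WT difference that departs from that of p65KO, with 237 of 10656 genes under an unadjusted p of 0.05 in limma. Likewise 0 genes passed for cRelKO, with 497 under an unadjusted p of 0.05. The offset of number 3 enters both comparisons through WT aTreg 3. It has no counterpart in p65KO, whose libraries are all numbers 1 and 2, whereas the cRelKO aTreg libraries are numbers 2 and 3 and its rTreg libraries numbers 1 and 2. Without both libraries numbered 3 there were again 0 calls for either genotype, with 313 and 307 genes under an unadjusted p of 0.05 in limma, and cRelKO aTreg then rests on 1 library. The effector Treg list had a median log2 difference of 1.98 in WT, 2.15 in p65KO and 1.76 in cRelKO. The WT median of this list was 2.42 without both libraries numbered 3, which turns its order with p65KO. Mitosis genes had medians of 1.52, 0.75 and 1.32, and resting state genes of -0.93, -0.88 and -0.71, with 1.64 and -1.11 in WT without number 3. None of these differences between lists was tested.

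Among the genes with the smallest p for a difference from cRelKO was Klrg1. It was at 82.2, 82.3 and 62.0 RPKM in WT aTregs and at 23.8 and 8.10 in cRelKO aTregs, while the cRelKO rTregs were at 6.13 and 4.45. The 2 cRelKO aTreg libraries thus lay above their rTregs and below every WT aTreg library. The aTreg minus rTreg difference was larger in WT by 2.40 (SE 0.52), with an adjusted p of 0.898 in limma. In p65KO the Klrg1 difference was 3.71, near the 3.73 of WT. Sec14l1 and Ier5l had WT differences of 1.29 and 1.56 against 0.29 and 0.16 in cRelKO. Ly6d and Snord55 fell in WT by 2.44 and 1.16 and had differences of 1.74 and 1.15 in cRelKO. Snord55 is a small nucleolar RNA, so its reads depend on fragment size and can come from its host gene. For p65KO the genes with the smallest p were Trafd1, Slc25a33, Rnf157, Trpt1 and Zfp873. Trafd1 had a difference of 0.56 in WT and -0.40 in p65KO, and Rnf157 of 0.75 and -0.25. For these 5 genes the adjusted p was 0.998.

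**Figure D5:**
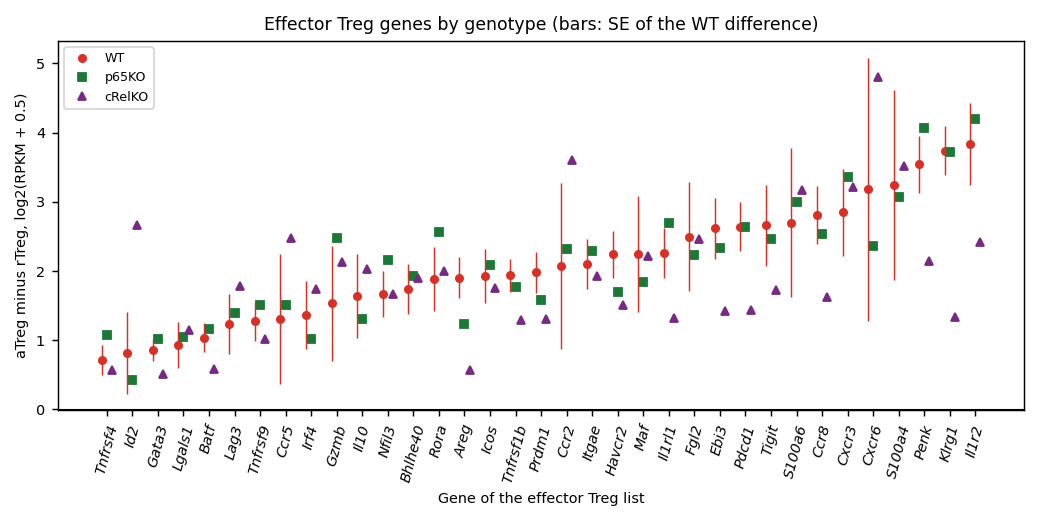
Mean aTreg minus rTreg difference in log2(RPKM + 0.5) (y axis) for the 35 tested genes of the effector Treg list, in WT (red circles, bars show the SE), p65KO (green squares) and cRelKO (purple triangles). All 35 WT points lie above 0, and at Klrg1 and Il1r2 the cRelKO points, at 1.34 and 2.42, lie below both others. No difference between genotypes passed the threshold.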

How the data were processed

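RNA of the 13 sorted libraries was prepared with the TruSeq kit, per the labels' protocols. Alignment and testing tools in the submitters' processing notes are STAR and DESeq2 1.10.1, with build mm10. Per the file headers, the authors deposited RPKM values per library and, for their own comparisons, log2 fold changes and p-values, all with decimal commas that were read as points. What the authors did to adjust the RPKM values by replicate number is not given in the sources used here. Of 14839 rows, 21 held no library values and were not analysed. No column of per-sample values went unused.

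Negative values became 0, and log2(RPKM + 0.5) was computed. Genes that reached 1 RPKM in 2 or more of the 13 libraries were tested in limma 3.58.1 (R 4.3.3, lmFit, contrasts, eBayes with trend), 6 groups in one fit, two-sided, Benjamini-Hochberg adjusted, threshold 0.05. The authors' deposited p-values were adjusted in the same way over 14818 genes. The procedure was tested on simulated data, drawn with independent errors per library and without the adjustment by replicate number or its identical values. That test therefore cannot show how the calls behave under this adjustment. Python 3.11.15 with pandas 2.3.3, numpy 2.4.6 and matplotlib 3.10.9 did the rest. Gene positions are those of GENCODE vM21 on GRCm38, the assembly that mm10 names.

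Samples were grouped by their titles. The members, the 22 gene lists, the 8 marker lists and the tests were chosen with earlier results of these data known. Named were 22 set genes, the 12 largest rises and falls (called, higher group at 5 RPKM or more on average, no overlap), up to 4 called members of each list with the largest changes and 1 against the list's direction, the 2 highest members where fewer than 2 were called, and 5 genes per difference between genotypes, 116 in all. Members named without values, and those chosen by their calls in the fits without 1 library, were picked after the values were seen. Some genes of the lists are counted but not reported here by name. Depth of the sorted set is unknown, so the precision of low values is too. Alternatives were pseudocounts of 0.1 and 1, other filters, median-of-ratios scaling, robust variance, only WT libraries, a replicate block, leaving out libraries and, added after seeing the data, the block without number 3.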

Additional observations from a re-analysis of the deposited data

How the results depend on the processing

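The 1302 calls of aTregs against rTregs stayed between 1014 and 1354 under other pseudocounts, filters, scaling, robust variance and the removal of genes with WT values below 0, and were 1666 by the authors' deposited p-values. The genes were not all the same: 929 of the 1302 were among the 1197 called without the filter on low values, 1014 with a filter at 3 RPKM, and 1178 to 1297 in the other fits of this group. They became 200 in a fit of only the 5 WT libraries (194 higher, 6 lower) and 2203 without both libraries numbered 3. Leaving out 1 library in turn gave 83 to 2963 calls, and the share of calls that were higher ran from 42.9% to 100%. Median-of-ratios scaling moved the median log2 difference of all genes from -0.061 to -0.039. The cause of these shifts was not tested.

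A replicate block gave 2077 calls (1146 higher, 931 lower), of which 1262 were shared with the fit without it, and 1682 with both libraries numbered 3 left out. Deviations of same-numbered libraries from their group means correlated between -0.488 and 0.442 over 26 pairs. The number means of the adjusted values were already close together, so these correlations cannot show whether the numbers pair the samples. Some pairs also repeat the same value, so the pairs are not independent. The main fit did not pair the samples by number. For the difference between WT and cRelKO the block gave 3 calls in place of 0, Siglech, Stfa3 and Tyrobp, named after their values were seen. With the block and without number 3, where cRelKO aTreg holds 1 library that is assumed to vary like the other groups, there were 12, all with a smaller aTreg minus rTreg difference in WT, among them the NK cell genes Klrb1c, Klrk1 and Tyrobp. The count for p65KO was 0 in every alternative run.

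Small differences without a call changed sign in some fits. With 1 library left out, Capg ran from -0.017 (without rTreg 2) to 0.508, Cd3g from -0.215 (without rTreg 2) to 0.295, with -0.004 without aTreg 2, Foxp3 from -0.156 (without rTreg 1) to 0.282, with -0.044 without aTreg 2, Il2ra from -0.497 to 0.069 (without rTreg 2) and Slc25a33 from -0.191 (without rTreg 2) to 0.411. Foxp3 was at -0.09 in the authors' deposited table. Of the 90 named genes that were called, 19 kept the call without aTreg 1, 20 without aTreg 2, 32 without rTreg 1, 60 without rTreg 2 and 86 without aTreg 3.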
